A study of Mus musculus with 2 samples.

Results

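The small leucine-rich proteoglycans (SLRPs) of the dermis were described from the UMI counts of 8 genes, Dcn, Lum, Bgn, Fmod, Ogn, Prelp, Aspn and Podn, chosen by symbol from the 31053 genes listed in the matrices. SLRPs are secreted matrix proteins whose arched leucine-rich repeats bind collagen fibrils and set their diameter and spacing. Several carry chondroitin, dermatan or keratan sulfate chains, and several bind TGF-beta or signal to immune cells once released from the matrix. In skin they are made mainly by fibroblasts, and decorin (Dcn) is the best known of them.

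Single-cell RNA sequencing was carried out on dermis of C57BL/6 mice aged 8 weeks that carried PdgfraDreER-tdTomato. In these mice tamoxifen turns on tdTomato by Dre-rox recombination in cells that express Pdgfra, so cells of the fibroblast lineage that never used Pdgfra at labelling are missed. Live tdTomato+ CD45- dermal cells were sorted from untreated (UT) skin or from skin given imiquimod (IMQ) cream, a Toll-like receptor agonist that causes psoriasis-like inflammation, for 7 days. There was 1 library per group, and the number of mice in each was not given in the sources used here. No test was therefore possible and no p-value is given. Mouse, library, treatment and the version of the counting software, which also differed, cannot be told apart in any difference between UT and IMQ. Intervals are at 95% and reflect the counting of UMIs alone, and they are exact except for ratios between genes, which have normal intervals on the log scale.

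Both libraries were read in barcodes with 200 to 5000 detected genes and at most 5% mitochondrial UMIs, which left 1045 of 1415 UT barcodes with 1104798 UMIs and 571 of 5047 IMQ barcodes with 460947 UMIs. A limit of 10% left 1301 and 1043. A median of 741 UMIs and 391 genes was seen per UT barcode, against 659 UMIs and 275 genes per IMQ barcode. The IMQ library stood apart in composition. Gm42418, a transcript that overlaps ribosomal RNA, took 14.6% of its UMIs and 1.38% of those in UT. Malat1, a nuclear transcript, was seen in 2.98% of IMQ barcodes and 9.28% of UT barcodes. Most kept barcodes of both libraries thus held no Malat1 UMI, and whether they were intact cells was not tested. Over the 8129 genes with at least 10 UMIs, IMQ over UT had a median log2 ratio of -0.61 in CPM, the UMIs of a gene as a share of all kept UMIs scaled to a common total, so that a gene at 0 in CPM lies above the median gene. No barcode sequence was shared between the kept barcodes of the libraries. All 7 fibroblast markers were detected in both libraries, at a summed 54617 CPM in UT and 101634 CPM in IMQ. Col1a1, Col1a2 and Col3a1 gave 58920 of the 60341 UMIs of these markers in UT and 46341 of 46848 in IMQ. The sums thus mainly reflect these collagens and do not measure how rich in fibroblasts each library was. Of the other cell types, keratinocyte markers summed to 1312 CPM in UT and 17.4 CPM in IMQ with 1 and 3 of 7 markers at 0, and class II markers to 1456 and 117 CPM with none of 4 at 0. Leukocyte markers summed to 120 and 82.4 CPM, mural and muscle markers to 108 and 17.4 CPM, endothelial markers to 22.6 and 6.51 CPM, melanocyte and Schwann cell markers to 1 UMI in each library, and both adipocyte markers were at 0 in each. At least 5 class II UMIs were held by 5 UT and 3 IMQ barcodes. The part of these cells in the ratios was not tested beyond leaving out the barcodes rich in their markers.

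All 8 members were detected in both libraries, and their levels ran from 38.9 to 23657 CPM in UT and from 4.34 to 17043 CPM in IMQ. In these 3′ libraries a transcript is tagged once whatever its length, so CPM can be set side by side between genes, although capture may differ from gene to gene. Of the class I members, decorin was the most abundant, with 23657 CPM in UT and 17043 CPM in IMQ. Biglycan (Bgn), its closest relative, stood at 1297 CPM in UT and 1458 CPM in IMQ. Asporin (Aspn), a class I member that carries no glycosaminoglycan chain and binds TGF-beta, stood at 488 CPM in UT (448 to 531) and 1052 CPM in IMQ (961 to 1150), so that the intervals of asporin lay far apart.

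Of the class II members, which can carry keratan sulfate, lumican (Lum) was the second most abundant SLRP, with 3734 CPM in UT and 4046 CPM in IMQ. Prelp, a member with a basic heparin-binding end, stood at 138 and 174 CPM. Fibromodulin (Fmod), known best from tendon, stood at 38.9 CPM in UT (28.2 to 52.4) and 4.34 CPM in IMQ (0.525 to 15.7). Osteoglycin (Ogn, class III) was at 219 CPM in UT and 254 CPM in IMQ, and podocan (Podn, class V) at 172 and 139 CPM. The order in UT was Dcn, Lum, Bgn, Aspn, Ogn, Podn, Prelp and Fmod, and in IMQ Prelp and Podn changed places. Osteoglycin and podocan had overlapping intervals in UT, as had podocan and Prelp, and in IMQ those of Ogn and Prelp and of Prelp and Podn overlapped.

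**Figure D1:**
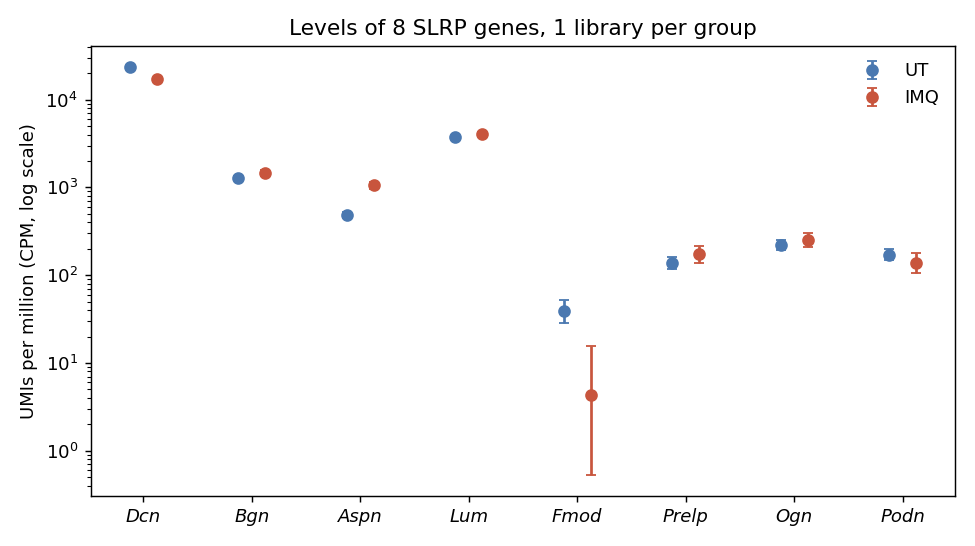
Level of each of the 8 SLRP genes in CPM on a log axis, in UT (blue) and IMQ (red), over barcodes with at most 5% mitochondrial UMIs. Points are library sums, 1 library per group, and bars are exact 95% Poisson intervals of the counts. Asporin lies at 488 CPM in UT and 1052 CPM in IMQ, and fibromodulin at 38.9 and 4.34 CPM.

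Per barcode, decorin had a median of 229 UMIs per 10000 in UT, with the middle 50% of barcodes between 125 and 334, and a median of 173 in IMQ, between 117 and 233. The spread of decorin over barcodes was thus wider in UT, where 1 barcode reached 1223 UMIs per 10000 and the highest IMQ barcode 604. After thinning to 400 UMIs a barcode, the variance of decorin was 4.36 times its mean in UT and 2.26 times in IMQ, while lumican gave 1.76 and 1.85. The median of lumican was 30.3 UMIs per 10000 in UT and 34.7 in IMQ, and that of biglycan 9.16 and 11.8. The other 5 members had a median of 0 in both. A barcode held UMIs of a median of 3 of the 8 members in either library, no barcode held all 8, and 33 UT barcodes and 3 IMQ barcodes held none.

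The first comparison was of the make-up of the SLRP transcripts, a measure that does not depend on how the libraries are scaled. Decorin made up 79.5% of the UMIs of the 8 genes in UT (79.1% to 80.0%) and 70.5% in IMQ (69.7% to 71.4%). Lumican made up 12.6% in UT (12.2% to 12.9%) and 16.7% in IMQ (16.1% to 17.4%), and biglycan 4.36% (4.14% to 4.59%) and 6.03% (5.60% to 6.49%). The share of asporin was 1.64% in UT (1.51% to 1.78%) and 4.35% in IMQ (3.98% to 4.75%). The decorin share was thus lower in the IMQ library and the shares of the next 3 members higher, each by more than the counting error.

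Of the rarer members, osteoglycin made up 0.736% in UT and 1.05% in IMQ, Prelp 0.463% and 0.718%, podocan 0.578% and 0.574%, and fibromodulin 0.131% and 0.018%. With the limit of 10% the decorin share was 79.5% in UT and 70.6% in IMQ, and the asporin share 1.61% and 3.75%. Set against decorin itself, there were 2.06 asporin UMIs per 100 decorin UMIs in UT and 6.17 per 100 in IMQ, so the log2 change was 1.58 (1.40 to 1.76). Lumican gave 15.8 per 100 in UT and 23.7 in IMQ, a log2 change of 0.59 (0.50 to 0.68), and biglycan 5.48 and 8.55, a log2 change of 0.64 (0.50 to 0.78).

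**Figure D2:**
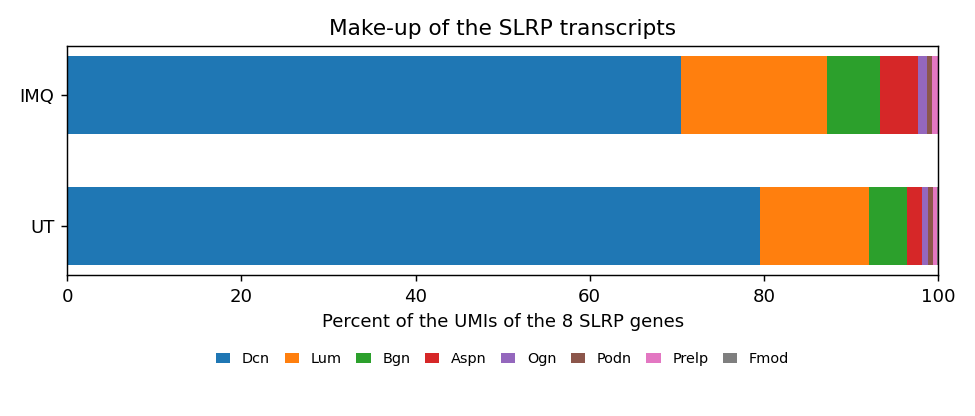
Percent of all UMIs of the 8 SLRP genes taken by each gene, in UT and IMQ, over barcodes with at most 5% mitochondrial UMIs, 1 library per group. The decorin segment is 79.5% in UT and 70.5% in IMQ and the asporin segment 1.64% and 4.35%, and fibromodulin is too rare to be seen.

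The second comparison was of each gene's level between IMQ and UT. Asporin was the only member at least 2-fold higher in IMQ, with a log2 ratio in CPM of 1.11 (0.93 to 1.29), and fibromodulin the only one at least 2-fold lower, with -3.17 (-6.26 to -1.22). Of all genes with at least 10 UMIs, 4.03% were at least 2-fold higher and 32.1% at least 2-fold lower. Relative to the median gene asporin and fibromodulin were again the members past 2-fold, with 1.72 and -2.55, and 12.7% and 14.9% of all genes were past it upward and downward. With the limit of 10%, asporin had a log2 ratio of 0.90 (0.75 to 1.06) and fell short of 2-fold, fibromodulin had -2.01 (-3.30 to -0.92), and 3.78% and 34.7% of all genes were past 2-fold upward and downward. Asporin was above 0 under each of 13 settings of filter and scaling, between 0.64 over all deposited barcodes and 1.63 in the 33 UT and 6 IMQ barcodes with at least 10 UMIs of the nuclear transcript Malat1.

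Decorin had a log2 ratio of -0.47 (-0.51 to -0.44) in CPM, but 0.01 under TMM scaling and 0.14 relative to the median gene. Over the kept barcodes its direction thus depended on the scaling. The same held for the sum of the 8 genes, which was 29743 CPM in UT and 24170 CPM in IMQ. Its log2 ratio was -0.30 (-0.33 to -0.27) in CPM, 0.18 (0.15 to 0.21) under TMM scaling and 0.31 relative to the median gene. Without the 10 UT and 6 IMQ barcodes that had at least 5 UMIs of markers of other cell types, the sum gave -0.38 in CPM. Decorin gave -0.82 (-0.91 to -0.73) in CPM in the 303 UT and 37 IMQ barcodes with at least 500 genes. The sum gave -0.69 (-0.76 to -0.61) there, and the median gene lay at -0.01.

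Lumican stood at 0.12 (0.04 to 0.20) and biglycan at 0.17 (0.03 to 0.30) in CPM, small values that both had intervals above 0. Without the barcodes rich in markers of other cell types they gave 0.03 (-0.05 to 0.11) and 0.09 (-0.05 to 0.22), and both intervals then included 0. In barcodes with at least 500 genes, of which there were 303 in UT and 37 in IMQ, they gave -0.63 and -0.23, and over all deposited barcodes lumican gave -0.04. Osteoglycin at 0.21 (-0.12 to 0.54), Prelp at 0.34 (-0.07 to 0.74) and podocan at -0.31 (-0.74 to 0.11) could not be told from 0 in CPM at this depth. Under TMM scaling these were 0.70 (0.36 to 1.02), 0.82 (0.41 to 1.22) and 0.17 (-0.26 to 0.59). Osteoglycin and Prelp then lay above 0, so this reading depended on the scaling. With the limit of 10% Prelp gave 0.34 (0.008 to 0.66) in CPM. Across the 8 members the median log2 ratio was 0.14 against -0.61 over all genes tested, and 7 of the 8 lay above the median gene. In sums over a library, fewer cells of a type and less RNA per cell cannot be told apart.

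**Figure D3:**
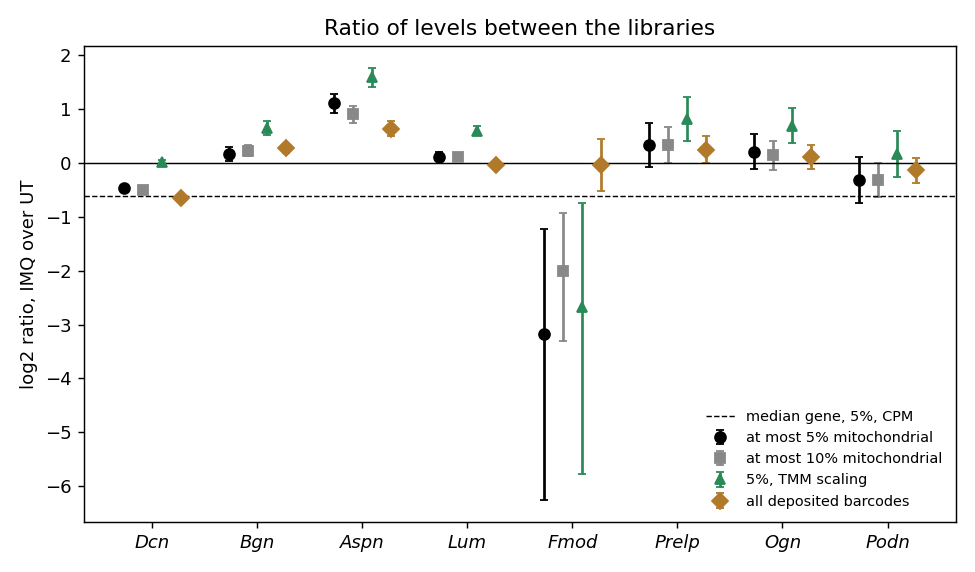
Log2 ratio of IMQ over UT for each SLRP gene with exact 95% intervals of the counts, in CPM at the limits of 5% (black) and 10% (grey), under TMM scaling (green) and over all deposited barcodes (brown). The dashed line is the median gene at -0.61. Asporin lies above 0 in all 4, decorin lies at -0.47 in CPM and 0.01 under TMM scaling, and fibromodulin moves from -3.17 to -0.04 when all barcodes are used.

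Fibromodulin rested on few barcodes. Its 43 UMIs in UT came from 7 barcodes, 1 of which held 15, and its 2 UMIs in IMQ came from 2 barcodes. The level in IMQ was 0.111 of that in UT, with a counting interval of 0.013 to 0.428. Barcodes with fewer than 200 genes, with 5 UT UMIs and 22 IMQ UMIs, also gave a lower level in IMQ, at -3.27 (-4.71 to -1.52) on the log2 scale. Those with 5% to 10% mitochondrial UMIs gave -1.09 (-2.94 to 0.71) from 7 and 6 UMIs, an interval that included 0. Only those with over 10% lay near 0, at -0.06 (-1.26 to 1.44), from 6 UT UMIs and 62 IMQ UMIs, the latter in 3 barcodes, 39 of them in 1. All deposited barcodes together held 61 and 92 UMIs in UT and IMQ, which gave -0.04 (-0.52 to 0.45) on the log2 scale. The lower level in IMQ was thus seen at the limits of 5% and 10% and in barcodes with fewer than 200 genes, and not over all deposited barcodes.

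Several members lie close together in the genome (GRCm38, GENCODE M21). Decorin (chr10:97479609-97518143) and lumican (chr10:97565128-97572703) lie on the plus strand of chromosome 10, 47.0 kb apart, and Prelp (chr1:133910304-133921414, minus strand) and fibromodulin (chr1:134037254-134048277, plus strand) lie 116 kb apart on chromosome 1. Biglycan is at chrX:73483602-73495933 on the plus strand and podocan at chr4:108014791-108096445 on the minus strand, where it overlaps Scp2 on its own strand, so the gene of origin of podocan UMIs is less certain. Asporin (chr13:49544443-49567565) and osteoglycin (chr13:49608046-49624501) belong to a run of 4 SLRP family genes on the plus strand of chromosome 13 within 119.7 kb, in the order Ecm2, Aspn, Omd and Ogn. All 4 lie opposite Cenpp, a kinetochore gene on the minus strand. Ecm2 and Omd, osteomodulin, are the only genes with at least 10 UMIs among the 10 family genes outside the 8 members, and 4 of those 10, Epyc, Optc, Chad and Podnl1, had no UMI in either library.

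The 4 neighbours on chromosome 13 did not move as one. Osteomodulin had 38.0 CPM in UT and 111 CPM in IMQ, a log2 ratio of 1.54 (0.92 to 2.17). Ecm2, which codes for a matrix protein with the same repeats, had 415 CPM in UT and 236 CPM in IMQ, a log2 ratio of -0.81 (-1.12 to -0.51), which lay 0.20 below the median gene. Asporin at 1.11 and osteomodulin thus lay on the other side of 0 from Ecm2, with osteoglycin at 0.21 between them. Asporin gave 118 UMIs per 100 Ecm2 UMIs in UT and 445 per 100 in IMQ, so the log2 change, which needs no scaling of the libraries, was 1.92 (1.57 to 2.27).

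The 250 bases before the RefSeq start of each of these 4 genes (GRCm38.p6, plus strand, 5′ to 3′) are shown because they are the stretches in which neighbours with unlike ratios can be compared. RefSeq windows were found for 6 of the 8 members, not for decorin and lumican. Capitals mark the letters TATAAA on either strand (TTTATA when on the other), and adjoining or overlapping matches run together.
Ecm2, chr13:49504560-49504809: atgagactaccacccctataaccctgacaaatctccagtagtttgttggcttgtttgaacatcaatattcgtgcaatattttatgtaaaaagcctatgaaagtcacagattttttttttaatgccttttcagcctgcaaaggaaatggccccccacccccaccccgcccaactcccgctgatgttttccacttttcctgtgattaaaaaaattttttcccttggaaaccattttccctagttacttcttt
Aspn, chr13:49544193-49544442: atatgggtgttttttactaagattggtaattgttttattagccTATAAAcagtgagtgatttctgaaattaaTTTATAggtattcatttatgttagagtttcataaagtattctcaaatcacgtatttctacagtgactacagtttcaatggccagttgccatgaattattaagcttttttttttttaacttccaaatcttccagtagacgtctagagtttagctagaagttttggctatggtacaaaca
Omd, chr13:49582212-49582461: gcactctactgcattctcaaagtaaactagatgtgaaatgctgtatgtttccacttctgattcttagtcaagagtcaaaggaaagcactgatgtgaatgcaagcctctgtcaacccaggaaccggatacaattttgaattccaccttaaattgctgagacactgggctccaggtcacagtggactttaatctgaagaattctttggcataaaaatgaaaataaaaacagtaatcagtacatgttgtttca
Ogn, chr13:49607765-49608014: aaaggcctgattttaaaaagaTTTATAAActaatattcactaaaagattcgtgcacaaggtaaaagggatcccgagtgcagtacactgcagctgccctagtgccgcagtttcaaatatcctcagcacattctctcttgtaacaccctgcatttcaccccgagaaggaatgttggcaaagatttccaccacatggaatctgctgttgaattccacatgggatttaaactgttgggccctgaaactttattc
The asporin window held 2 matches, the nearer 178 bases before the start, and the osteoglycin window held 2 overlapping matches, the nearer at 227 bases. The windows of Ecm2 and Omd held none. Of all 32851 RefSeq windows of this length, 4063, or 12.4%, held at least 1 match. No annotated exon overlapped any of the 4 windows. A match is a run of letters and not evidence of a bound site, and the 2 genes that were higher in IMQ, asporin and osteomodulin, differed in it.

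The third comparison was with Pi16, a peptidase inhibitor gene that marks fibroblasts of the fascia and adventitia. It had 660 CPM in UT and 161 CPM in IMQ, and 209 of 1045 UT barcodes and 47 of 571 IMQ barcodes held a Pi16 UMI. In UT the barcodes with Pi16 were richer in SLRP transcripts, with a summed 38218 CPM against 26865 CPM in those without, a log2 ratio of 0.51 (0.48 to 0.54). The IMQ sums of 25914 and 23962 CPM gave a smaller log2 ratio, 0.11 (0.03 to 0.20). For the same split Col1a1, Col1a2 and Col3a1 gave 0.17, 0.36 and 0.24 in UT and 0.30, 0.33 and 0.01 in IMQ. Higher levels with Pi16 were thus not confined to SLRP genes before thinning. Barcodes with Pi16 were also deeper in UT, with a median of 1044 UMIs against 687.5. After thinning to 400 UMIs the log2 ratio of the sum was 0.35 in UT and 0.02 (-0.17 to 0.20) in IMQ. Col1a1, Col1a2 and Col3a1 then gave -0.16, 0.05 and -0.13 in UT and 0.35, 0.08 and 0.07 in IMQ. The groups were set again from the thinned Pi16 counts, 127 UT barcodes with and 845 without, and 26 and 512 in IMQ. Barcodes that lost their Pi16 UMIs in thinning counted as without, so depth and this regrouping cannot be told apart in thinned splits. The part of depth in these values was not tested beyond the thinning.

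Osteoglycin was the member most unequal between barcodes with and without Pi16. In UT it had 578 CPM with Pi16 and 96.1 CPM without, which is 2.59 (2.19 to 2.996) on the log2 scale. The IMQ barcodes had 561 CPM with Pi16 and 217 CPM without, or 1.37 (0.70 to 1.999). After thinning these were 1.92 (1.16 to 2.67) and 1.59 (0.20 to 2.75), both above 0. Before thinning the 3 chromosome 13 neighbours of osteoglycin were also higher with Pi16 in UT, Omd by 2.39 (1.43 to 3.41), Ecm2 by 0.93 (0.65 to 1.21) and asporin by 0.84 (0.58 to 1.10) on the log2 scale. In IMQ the values were 1.34 (0.27 to 2.30) for Omd, 1.90 (1.27 to 2.50) for Ecm2 and 0.27 (-0.14 to 0.66) for asporin. After thinning Ecm2 gave 0.72 (0.12 to 1.28) in UT and 1.80 (0.26 to 3.07) in IMQ, and asporin 1.08 (0.55 to 1.58) and 0.33 (-0.61 to 1.13). Omd was left with 4 UMIs with Pi16 and 6 without in UT, and with 1 and 23 in IMQ. It gave 2.16 (-0.11 to 4.23) and -0.22 (-5.58 to 2.40), so that its thinned split could not be told from 0 in either library. The median over all genes with enough UMIs was -0.02 in UT and -0.07 in IMQ for the same split.

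Decorin was higher with Pi16 by 0.54 (0.50 to 0.57) in UT and by 0.21 (0.11 to 0.31) in IMQ. After thinning it gave 0.36 (0.28 to 0.44) and 0.08 (-0.14 to 0.28), so that the IMQ interval then included 0. Lumican was higher with Pi16 in UT, with 4081 CPM against 3618 CPM, and lower in IMQ, with 3024 CPM against 4171 CPM, and after thinning the UT interval included 0 (-0.05 to 0.37). Biglycan gave 0.42 (0.25 to 0.58) in UT and -0.11 (-0.49 to 0.25) in IMQ, and Prelp 1.20 (0.72 to 1.68) and -0.58 (-2.08 to 0.61). Thinning brought the UT values to 0.20 (-0.17 to 0.54) for biglycan and 0.89 (-0.28 to 1.93) for Prelp, neither of which could then be told from 0. Podocan gave 0.10 (-0.39 to 0.57) and 0.61 (-0.53 to 1.60), with both intervals across 0, and fibromodulin had 11 UMIs with Pi16 and 32 without in UT and no more than 2 in IMQ. Whether any of these splits differed between the libraries was not tested.

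Because barcodes with Pi16 were rarer in IMQ, the ratio between libraries was also taken over barcodes with no Pi16 UMI, 836 in UT and 524 in IMQ, a choice made after seeing the data. There osteoglycin was at 1.17 (0.72 to 1.63), Prelp at 0.80 (0.33 to 1.27) and asporin at 1.34 (1.13 to 1.55). Osteoglycin and Prelp, whose intervals in CPM included 0 over all kept barcodes, were thus above 0 among barcodes without Pi16. The barcodes left out held 163 of 242 osteoglycin UMIs in UT and 28 of 117 in IMQ. For Prelp they held 67 of 152 and 6 of 80, so the choice itself raises both ratios. Pi16 was at 660 CPM in UT and 161 CPM in IMQ, so barcodes without it need not be alike in kind. Whether like cells differed was not tested. Decorin gave -0.34 there and the sum of the 8 genes -0.16.

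**Figure D4:**
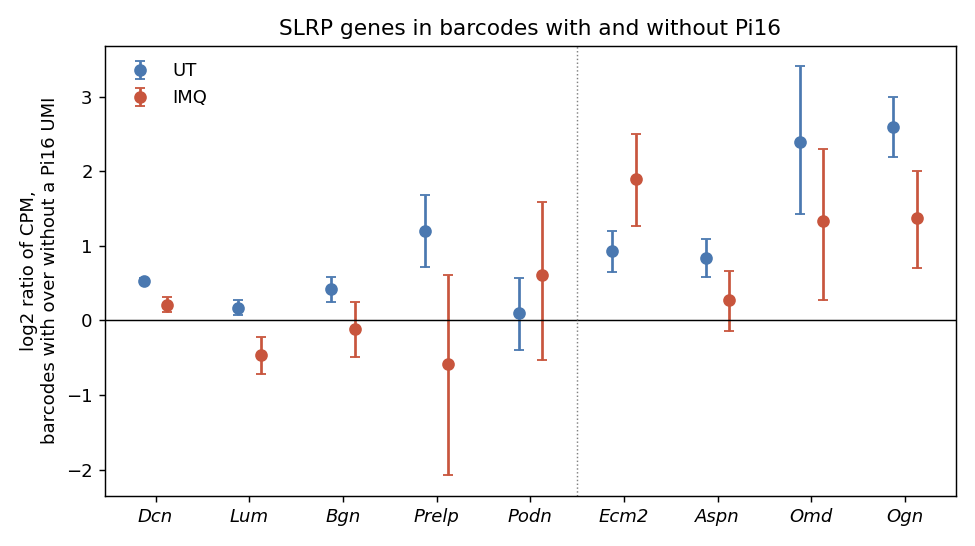
Log2 ratio of CPM in barcodes with over without a Pi16 UMI, within UT (blue) and within IMQ (red), 1 library each, with exact 95% intervals of the counts. To the right of the dotted line are the 4 neighbours on chromosome 13. Osteoglycin lies at 2.59 in UT and 1.37 in IMQ, and lumican at 0.17 in UT and -0.46 in IMQ.

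The share of barcodes with a UMI was a further measure of each gene. Decorin was seen in 95.1% of UT barcodes (93.6% to 96.3%) and 97.5% of IMQ barcodes (95.9% to 98.7%), and lumican in 77.7% and 80.7%. The decorin share went against its CPM, so no order of the libraries is read from it. Asporin was seen in 27.1% of UT barcodes (24.4% to 29.9%) and 46.2% of IMQ barcodes (42.1% to 50.4%). After thinning to 400 UMIs, which left out 73 UT and 33 IMQ shallower barcodes, these became 14.4% (12.3% to 16.8%) and 30.9% (26.97% to 34.9%). Asporin transcripts were thus found in more barcodes of IMQ also at matched depth. Thinned shares of biglycan were 40.1% and 40.3%, of osteoglycin 5.97% and 8.55%, of Prelp 4.53% and 7.25% and of podocan 6.69% and 4.83%, the last 3 with overlapping intervals.

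RNA free in the suspension can give UMIs to any barcode, and no cell type that lacks SLRPs was large enough to measure it. In the 3621 IMQ barcodes with fewer than 200 genes, at a median of 287 UMIs, decorin was seen in 76.5% and asporin in 11.3%. The 64 such UT barcodes, at a median of 396 UMIs, showed decorin in 79.7% and asporin in 7.81%. The decorin level there was 12041 CPM in UT and 11191 CPM in IMQ, and the asporin level 221 CPM (81.1 to 481) and 441 CPM (403 to 480). Each of these 4 levels was lower than in the kept barcodes of its library. The 5 class II-rich UT barcodes, at a median of 651 UMIs, held 1 decorin UMI and no UMI of the other 7 genes, a sum of 115 CPM (2.91 to 641). The 3 class II-rich IMQ barcodes, at a median of 369 UMIs and 1181 UMIs in all, held 2 decorin and 2 lumican UMIs in 2 of the 3 barcodes, a sum of 3387 CPM (923 to 8672).

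Across barcodes of a library, decorin and lumican went together most among the members, with Pearson r of log2(1 + UMIs per 10000) of 0.57 over 1045 UT barcodes and 0.34 over 571 IMQ barcodes. After thinning, Spearman rho was 0.44 and 0.28. These points share a library, and both genes take part of the same total. Of the 28 pairs of members, 2 in UT and 1 in IMQ had r above 0.2, the other UT pair being decorin with biglycan at 0.28, for which IMQ gave 0.07. Osteoglycin with Pi16 gave 0.31 in UT and 0.11 in IMQ. After thinning, Spearman rho was 0.15 in UT and 0.03 in IMQ for decorin with biglycan. For osteoglycin with Pi16 it was 0.18 and 0.09. The remaining pairs are weak correlations of sparse counts and are given only as a range, from -0.10 in UT and -0.06 in IMQ upward.

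Before thinning, decorin followed the summed fibrillar collagens Col1a1, Col1a2 and Col3a1 more closely than any other member did, with r of 0.72 in UT and 0.55 in IMQ, and lumican gave 0.54 and 0.39. After thinning, Spearman rho with the collagens was 0.56 for decorin and 0.42 for lumican in UT, but 0.28 for decorin and 0.30 for lumican in IMQ. Among 407 genes outside the family with at least 100 UMIs in each library, the 10 most like the SLRP sum, by the lower r of the libraries, were Sparc, Col3a1, Col1a1, Col1a2, Ctsk, Aebp1, Gsn, Timp2, Serpinf1 and Serpinh1. Sparc, a collagen-binding matricellular gene, led with r of 0.60 in UT and 0.59 in IMQ. By the same measure the gene most like osteoglycin was Ctla2a with 0.21 and 0.18, and that most like biglycan was Mfap4 with 0.25 and 0.16, both low values.

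**Figure D5:**
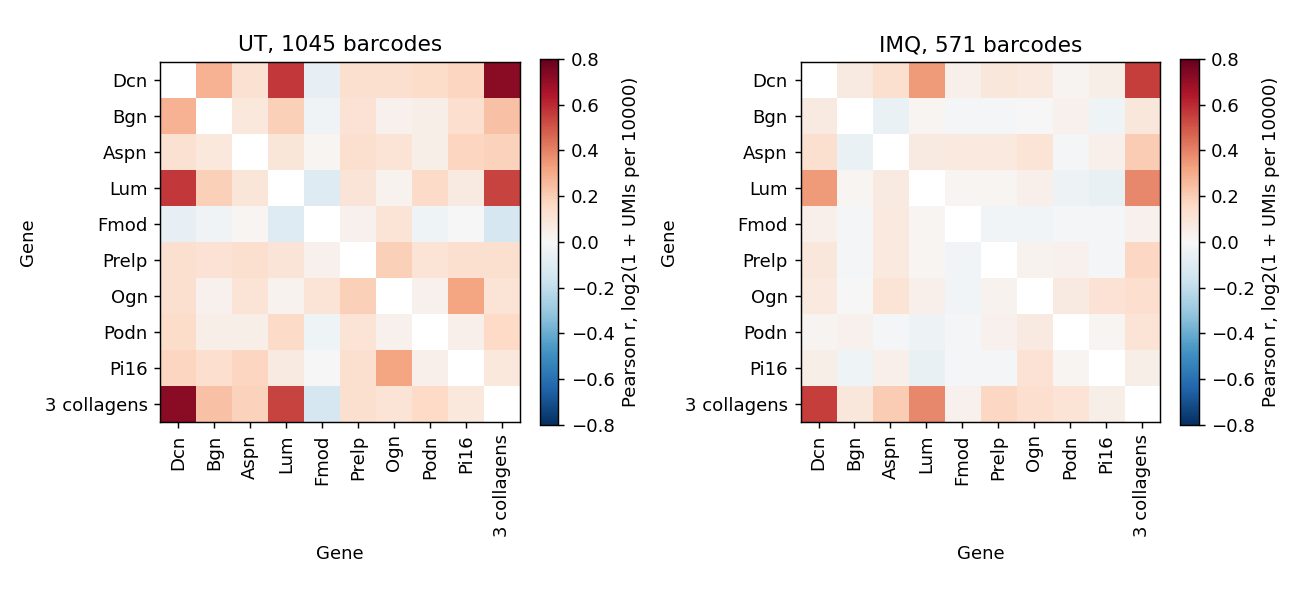
Pearson r across barcodes of log2(1 + UMIs per 10000) for each pair of the 8 SLRP genes, Pi16 and the sum of Col1a1, Col1a2 and Col3a1, in 1045 UT and 571 IMQ barcodes, on a colour scale from -0.8 to 0.8. Decorin, lumican and the collagens form the strongest block, at 0.57 to 0.72 for decorin in UT and 0.34 to 0.55 in IMQ.

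Over the kept barcodes the collagen partners of the SLRPs were higher in IMQ, while decorin lay at -0.47 in CPM and 0.01 under TMM. Col1a1, Col1a2 and Col3a1 together had 53331 CPM in UT and 100534 CPM in IMQ, or 0.91 (0.90 to 0.93) on the log2 scale, and all 5 fibrillar collagens listed, Col5a1 and Col5a2 included, were above 0, with a median of 0.88. Per 100 UMIs of the 3 collagens there were 55.8 SLRP UMIs in UT and 24.0 of them in IMQ, so the log2 change was -1.21 (-1.25 to -1.18). Decorin per 100 Col1a2 UMIs was 137 in UT and 52.0 in IMQ, a log2 change of -1.39 (-1.44 to -1.35). The balance of SLRP to collagen transcripts was thus lower in the IMQ library, a statement that no scaling can turn, with -1.19 at the limit of 10%, -1.33 over all deposited barcodes and -1.12 in barcodes without Pi16. In the barcodes with fewer than 200 genes it was -1.26 (-1.42 to -1.10), and in the few with at least 10 Malat1 UMIs it was -0.04 (-0.26 to 0.19). With at least 500 genes it was -0.87 (-0.95 to -0.78), where the SLRP sum lay at -0.69 and decorin at -0.82 in CPM. The ratio of the collagens alone was not taken at that limit.

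The genes that build and trim SLRPs were sparse. Of 20 enzymes of the linker and of chondroitin and dermatan sulfate chains, 14 had at least 10 UMIs, with a median log2 ratio of -0.53 against -0.61 over all genes, none at least 2-fold higher and 2, Xylt1 and Chsy1, at least 2-fold lower, with 11 UT UMIs and 2 IMQ UMIs each, where 4.03% and 32.1% of all genes were past 2-fold upward and downward. With the limit of 10%, 4 of 15 measured enzymes were at least 2-fold lower, against 34.7% of all genes, and their median was -0.80 against -0.69. Chpf, a chondroitin polymerising factor, was the highest of them at 0.86 (0.40 to 1.31). Of the keratan sulfate enzymes, B4galt1 at -0.13 (-0.74 to 0.46) and B4galt4, with 6 UMIs in UT and 5 in IMQ, were the 2 with enough UMIs.

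All 7 genes of TGF-beta ligands and latency proteins were measured and none was past 2-fold, against 4.03% of all genes upward and 32.1% downward, with a median of -0.40 and Tgfb2 lowest at -0.94 (-1.64 to -0.29). With the limit of 10% Tgfb2 was past it at -1.17, as were 34.7% of all genes downward. Of the proteases known to cleave SLRPs or their collagen partners, 6 of 7 were measured and their ratios were mixed. Mmp14, a membrane-bound collagenase, had 546 CPM in UT and 145 CPM in IMQ, a log2 ratio of -1.91 (-2.30 to -1.54), and Mmp3, stromelysin, 234 and 464 CPM, a log2 ratio of 0.99 (0.72 to 1.26). The highest ratio, that of Adamts4 at 2.58, rested on 10 UMIs in IMQ, 9 of them in 1 barcode. Bmp1, which trims the propeptide of biglycan, was at -0.25 (-0.72 to 0.19), Mmp2 at 0.17 (0.02 to 0.32) and Adamts5 at 0.15 (-0.72 to 0.97).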

How the data were processed

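Dermal cells were profiled with the Chromium 3′ kit, version 3, in 1 UT and 1 IMQ library. The authors deposited UMI counts per gene and barcode with no normalisation, and per the file headers these came from Cell Ranger 3.0.0 (UT) and 3.1.0 (IMQ). The submitters' processing notes name the build mm10, and whether counting used strand was not given in the sources used here. The IMQ matrix held fewer barcodes before any filter than the study counted after its filter, so every IMQ value describes the deposited matrix. The UT barcodes kept here were also fewer than the UT cells the study counted. Neither kept set is therefore the set of cells the study analysed.

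Barcodes with 200 to 5000 genes and at most 5% (also 10%) mitochondrial UMIs were kept, and doublets were removed only as an alternative (Scrublet in scanpy 1.11.5, top scores at 0.8% per 1000 barcodes, 9 UT and 3 IMQ barcodes). UMIs were summed per library and divided by all kept UMIs (CPM). Levels have Poisson, shares Clopper-Pearson and ratios conditional binomial intervals, exact and at 95% (scipy 1.17.1), except that ratios between genes have normal intervals on the log scale. The ratios were run on simulated Poisson library sums, the model that their intervals assume. That run could not show whether the intervals suit counts that cluster in barcodes. Fold counts cover genes with at least 10 UMIs over both libraries. TMM came from edgeR 4.0.16 and median-of-ratios factors from DESeq2 1.42.0 under R 4.3.3. Thinning drew 400 UMIs a barcode at random, and thinned Pi16 splits used groups set again from the thinned Pi16 counts. Of 31053 gene identifiers, 31011 were found in GENCODE M21. Chst6 is not among the listed genes and was not analysed here.

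The 8 members were all named, together with listed partner genes with at least 10 UMIs and, for likeness, the genes with the highest r. The members, lists and limits were chosen with earlier results of these data known. Other alternatives were other barcode filters, a count minimum of 50 or none, CPM after dropping UMIs of Gm42418, AY036118 and mitochondrial and ribosomal protein genes, equal weight per barcode and leaving out the top barcode.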

Additional observations from a re-analysis of the deposited data

Results flagged for a closer look

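The split of lumican by Pi16 had opposite signs in the libraries. The log2 ratio of barcodes with over without a Pi16 UMI was 0.17 (0.07 to 0.27) in UT and -0.46 (-0.71 to -0.22) in IMQ, and the difference was not tested, since each condition was 1 library. The IMQ value rested on 47 barcodes with 151 lumican UMIs. With the limit of 10% the values were 0.11 (0.02 to 0.20) in UT and -0.22 (-0.39 to -0.05) in IMQ. After thinning to 400 UMIs, with the Pi16 groups set again from the thinned counts, they were 0.16 (-0.05 to 0.37) and -0.70 (-1.30 to -0.16). The UT interval then included 0.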

How the results depend on the processing

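No paired analysis was possible because the groups share only 1 replicate number and each holds 1 library, and for the same reason no library could be left out. The log2 ratio of the SLRP sum between IMQ and UT, -0.30 in CPM, turned to 0.18 under TMM and median-of-ratios scaling and to 0.28 in the 33 UT and 6 IMQ barcodes with at least 10 Malat1 UMIs. It was -0.69 with at least 500 genes, -0.46 over all deposited barcodes, -0.38 without barcodes rich in markers of other cell types, -0.16 without Pi16 barcodes (chosen after seeing the data), -0.040 in CPM after dropping mitochondrial, ribosomal protein, Gm42418 and AY036118 UMIs, and -0.27 with equal weight per barcode. The limit of 10%, doublet removal and leaving out the top barcode kept it within its interval. Of single members, decorin turned to 0.11 with at least 10 Malat1 UMIs, 0.010 under TMM and 0.0028 under median-of-ratios scaling. It was -0.82 with at least 500 genes and -0.65 over all deposited barcodes. Lumican turned to -0.63 with at least 500 genes, -0.042 over all deposited barcodes and -2.24 with at least 10 Malat1 UMIs, and biglycan to -0.23 with at least 500 genes. Of the 8 members, 2 were past 2-fold, where 4.03% of all genes were past it upward and 32.1% downward. There was 1 at the limit of 10%, fibromodulin (all genes 3.78% and 34.7%), and 1 with at least 500 genes, asporin (16.4% and 16.6%). Over all deposited barcodes there were 0 (2.36% and 52.3%). Without Pi16 barcodes there were 3, fibromodulin, osteoglycin and asporin (5.03% and 33.5%). Of the 7 members with enough UMIs there were 1 with at least 50 UMIs (2.43% and 28.4%) and 6 with at least 10 Malat1 UMIs (13.0% and 23.2%). The SLRP sum per collagen UMI, -1.21, was -0.87 with at least 500 genes, -1.33 over all deposited barcodes, -1.12 without Pi16 barcodes and -0.038 with at least 10 Malat1 UMIs, all chosen after seeing the data. The Pi16 split of the sum in UT, 0.51, was 0.46 at the limit of 10%, 0.57 with at least 2 Pi16 UMIs and 0.35 after thinning, and in IMQ, 0.11, it was 0.24 at 10% and 0.018 after thinning. The cause of these shifts was not tested. Depth limits fibromodulin, with 2 UMIs in kept IMQ barcodes, and the enzymes most.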
